A study of Mus musculus with 154 samples.

Results

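Fatty acid synthesis in the liver was followed through 10 listed genes: Acly, Me1, Acaca, Fasn, Elovl6, Scd1, Srebf1, Thrsp, Gpam and Pnpla3. The list was matched by gene symbol, and 9 of the 10 were among the 13289 genes of the count table (Pnpla3 was not analysed here). RNA-seq counts came from the livers of mice of 24 strains, all 5 weeks old, fasted overnight and listed as male. The reference was C57BL/6J (B6, n = 20). Single chromosome substitution strains (CSSs) carried 1 A/J-derived chromosome in the heterozygous state on a B6 background. In the names the sire stands first. Chromosomes 4, 5, 8 and 10 came from the sire, in (B6.A4 X B6)F1, (B6.A5 X B6)F1, (B6.A8 X B6)F1 and (B6.A10 X B6)F1. Chromosomes 3, 6, 14 and 17 came from the dam, in (B6 X B6.A3)F1, (B6 X B6.A6)F1, (B6 X B6.A14)F1 and (B6 X B6.A17)F1. There were 63 single CSS mice, 8 of each strain except 7 with chromosome 5. Double CSSs carried a chromosome of each kind, with 71 mice in 15 crosses of 3 to 6 mice. Sires with chromosome 5, 8 or 10 were each crossed to dams with chromosome 3, 6, 14 or 17, and sires with chromosome 4 to dams with chromosome 6, 14 or 17, giving names such as (B6.A8 X B6.A14)F1. Each chromosome always came from the same parent, so the parent cannot be told apart from the chromosome. A/J alleles were seen in single copy only, so a recessive effect could not appear.

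Hepatocytes turn surplus carbohydrate into fat by de novo lipogenesis. Citrate is cleaved to acetyl-CoA, acetyl-CoA is carboxylated to malonyl-CoA, and a single large synthase builds palmitate from them with NADPH. Insulin and liver X receptors raise the transcription factor SREBP1c, which with ChREBP turns on most of these genes after a meal, and fasting lowers them. Counts are per gene, so the SREBP1a and SREBP1c transcripts of Srebf1 cannot be told apart.

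Of the 9 genes, Elovl6 (chr3:129532355-129638495) alone lies on a chromosome that was substituted. Acly (chr11:100476353-100528000), Acaca (chr11:84129672-84401651), Fasn (chr11:120805846-120824547) and Srebf1 (chr11:60199089-60222581) lie on chromosome 11. Me1 is at chr9:86581371-86695953, Scd1 at chr19:44394455-44407879, Thrsp at chr7:97412938-97417730 and Gpam at chr19:55067268-55127238 (GRCm38). Differences of these 8 genes between strains are therefore in genes outside the A/J chromosome.

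The upstream sequences of Acly, Fasn and Gpam are printed because these genes were lower together in the chromosome 8 strain. Each is the 250 bases before the first RefSeq start on GRCm38.p6, read 5′ to 3′ along the gene's own strand (minus for all 3), with capitals on CCAAT or its complement ATTGG.
Acly (chr11:100528001-100528250): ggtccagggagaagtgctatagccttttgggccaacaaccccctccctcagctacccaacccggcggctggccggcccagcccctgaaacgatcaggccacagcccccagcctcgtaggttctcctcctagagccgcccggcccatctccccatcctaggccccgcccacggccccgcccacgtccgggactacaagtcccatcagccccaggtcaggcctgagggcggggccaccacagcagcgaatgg
Fasn (chr11:120824548-120824797): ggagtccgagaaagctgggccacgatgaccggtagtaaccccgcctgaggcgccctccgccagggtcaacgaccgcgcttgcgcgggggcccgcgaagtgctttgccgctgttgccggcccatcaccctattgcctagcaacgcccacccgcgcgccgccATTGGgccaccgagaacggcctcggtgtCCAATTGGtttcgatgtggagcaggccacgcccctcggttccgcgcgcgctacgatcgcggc
Gpam (chr19:55127239-55127488): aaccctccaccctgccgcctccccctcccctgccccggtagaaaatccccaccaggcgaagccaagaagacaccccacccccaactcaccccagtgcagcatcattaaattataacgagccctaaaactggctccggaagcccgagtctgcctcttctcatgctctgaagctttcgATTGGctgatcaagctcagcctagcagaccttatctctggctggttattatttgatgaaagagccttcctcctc
CCAAT, the letters bound by NF-Y, a factor that works beside SREBP1, was found on either strand in 33.8% of 32851 RefSeq promoter windows of this length. Fasn held it 3 times, at 90 to 86, 62 to 58 and 59 to 55 bases before the start, and the last pair overlap on opposite strands. Gpam held it once, at 74 to 70 bases before the start, and the Acly window held no match. The E-box CACGTG (6.02% of all windows) and the sterol regulatory element letters TCACNCCAC (1.05%) were matched in none of these 3 windows on either strand. The first RefSeq start of Acaca lies inside the gene as placed above, so its window is not printed.

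Library totals ran from 4638701 to 30465477 counts with a median of 16116424. Levels below are CPM (counts scaled to a common library size, with trimmed mean, TMM, factors). Differences are log2 fold changes ± SE from edgeR's quasi-likelihood test with 5 surrogate variables, which stand for unrecorded variation between libraries. A difference was called at a false discovery rate (FDR) under 0.05, adjusted over all genes within the effect, separately for genes on and off the substituted chromosome. All 7 hepatocyte markers were in the table, while 5 of the 8 adipocyte markers, Adipoq, Plin1, Cfd, Lep and Retn, were not among the genes analysed. In 1 mouse of (B6.A4 X B6.A14)F1, replicate 3, 4 Y-linked genes summed to 2.94 CPM, against 227.5 to 432.0 CPM in the other mice. Where leaving this mouse out ended a call of a member named below, the value without it is given. Network genes, cell type markers and trait slopes were not examined without this mouse.

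Scd1, which introduces the double bond of oleate, was the most abundant of the 9 genes in B6. Per kilobase of exon, mean B6 levels were 200.7 CPM for Scd1, 21.3 for Gpam, the first acyltransferase of glycerolipid assembly, 17.4 for Acly, which cleaves citrate, and 15.5 for Me1, which supplies NADPH. Thrsp (Spot 14), a small lipogenic regulator, stood at 12.6 CPM per kilobase. The remaining genes were close together on this scale, at 4.74 for Acaca, 4.75 for Fasn, 4.65 for Srebf1 and 4.47 for Elovl6, which elongates palmitate to stearate. Scd1 belongs to a family of related genes, and how reads shared between its members were counted was not tested.

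Strain was related to the level of most of these genes. In a joint test of all 23 strain terms 7 of the 9 genes passed, beside 51.4% of all genes. The FDR was 2.2e-09 for Me1, 4.94e-05 for Scd1, 9.03e-05 for Acly, 5.41e-04 for Acaca, 0.00258 for Srebf1, 0.00415 for Fasn and 0.00796 for Gpam. Elovl6 (FDR = 0.13) and Thrsp (FDR = 0.148) did not pass. With 10 surrogate variables Gpam no longer passed (FDR = 0.124) and Elovl6 did (FDR = 0.0261), and with 0 Thrsp passed as well (FDR = 0.0273). The span between the highest and the lowest strain mean was 0.49 log2 units for Gpam, 0.67 for Acaca, 0.72 for Acly, 0.78 for Elovl6, 1.05 for Fasn, 1.25 for Me1, 1.38 for Srebf1, 1.65 for Thrsp and 1.71 for Scd1. Ordering the 24 strains by mean level makes the gaps between neighbours small, so their size cannot tell whether strains differ. Of 207 such neighbouring pairs, 206 lay closer together than the larger of their SDs. The exception was Scd1, for which the chromosome 6 strain (mean log2 CPM 10.91 ± 0.49 SD) stood above the next lower strain, (B6.A8 X B6.A14)F1 (10.38 ± 0.19). The chromosome 8 strain had the lowest mean of the 24 for Acly, Acaca, Fasn and Gpam.

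**Figure D1:**
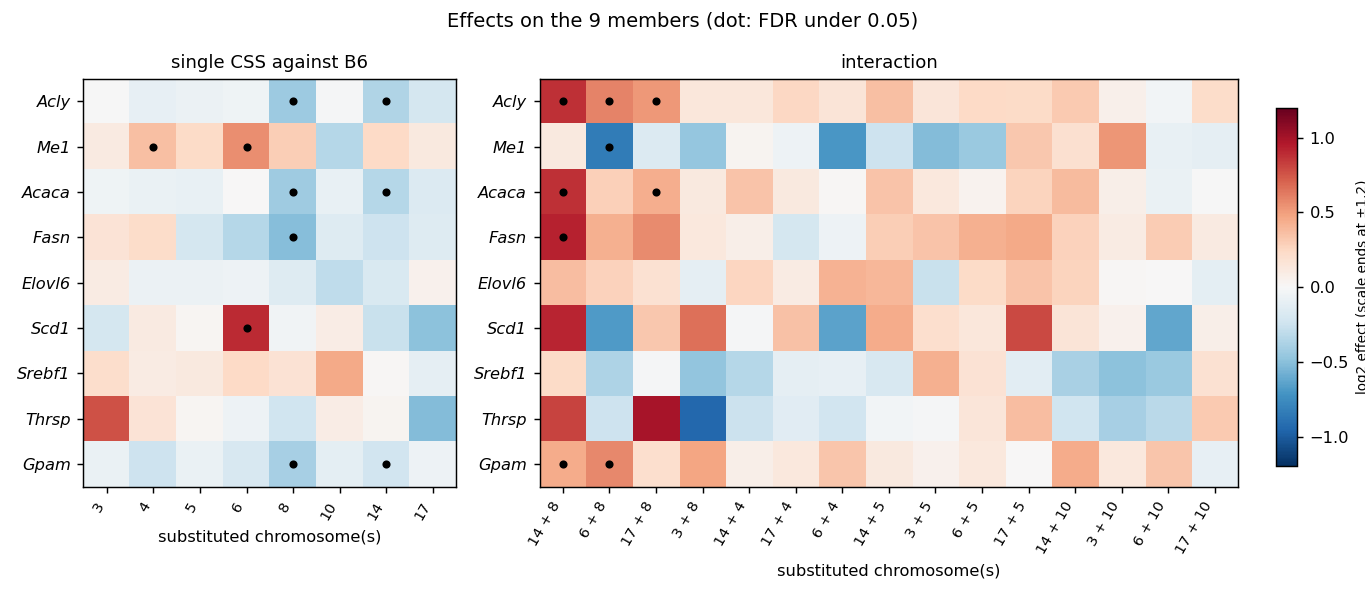
Effects of the A/J chromosomes on the 9 genes: columns are the 8 single CSSs against B6 and the 15 interactions, rows are genes, colour is the log2 effect and a dot marks an FDR under 0.05. Dots for lower levels stand under chromosomes 8 and 14, and the 9 interaction dots stand in 3 crosses with chromosome 8.

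The first question was which single chromosomes changed the pathway. In (B6.A8 X B6)F1, 4 of the 9 genes fell: Acaca, which makes malonyl-CoA, the synthase Fasn, Acly and Gpam. Chromosome 8 also gave the most calls over all genes, with 29.6% called and 16.7% called lower. Acaca ran from 53.5 to 132.1 CPM (median 75.8) in B6 and from 49.1 to 63.3 (median 57.6) in (B6.A8 X B6)F1. In 8 of 8 mice it lay below the B6 median, though the ranges overlapped (-0.43 ± 0.085, FDR = 3.45e-05).

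Acly ran from 66.4 to 138.4 CPM (median 91.8) in B6 and from 51.1 to 71.8 (median 59.7) in the chromosome 8 strain. Again 8 of 8 mice lay below the B6 median (-0.43 ± 0.094, FDR = 1.26e-04). The Acaca and Acly calls held under all 9 alternative settings. None of these settings, here and below, left out a mouse of B6 or of a single CSS. Gpam ran from 91.4 to 203.0 CPM (median 138.2) in B6 and from 85.6 to 117.8 (median 107.0) with chromosome 8, below the B6 median in 8 of 8 mice (-0.40 ± 0.10, FDR = 7.4e-04). With 10 surrogate variables the Gpam difference was -0.015 (FDR = 0.948).

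Fasn varied widely in B6, from 28.8 to 129.5 CPM (median 43.4). In (B6.A8 X B6)F1 it ran from 25.1 to 39.2 CPM (median 27.6), below the B6 median in 8 of 8 mice (-0.51 ± 0.16, FDR = 0.00726). The Fasn call was lost with body weight as a covariate (-0.25, FDR = 0.266) and with 10 surrogate variables (-0.36, FDR = 0.154). The regulator Srebf1 had a median of 20 CPM with chromosome 8 and 23.4 in B6, with mean log2 CPM of 4.30 and 4.61. Its difference did not pass, and its direction turned with the number of surrogate variables, from -0.39 (FDR = 0.101) with 0 to 0.18 ± 0.18 (FDR = 0.488) with 5 and -0.064 (FDR = 0.889) with 10. Thrsp had medians of 13.2 and 19 CPM (-0.24 ± 0.37, FDR = 0.673). Me1 passed with body weight as a covariate (0.39, FDR = 0.0258) and with the stricter filter of 15 counts in 75% of the mice (0.34, FDR = 0.0397), but not otherwise (0.30 ± 0.13, FDR = 0.0831). Scd1 (-0.039 ± 0.23, FDR = 0.93) and Elovl6 (-0.16 ± 0.16, FDR = 0.507) did not pass either.

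Chromosome 14 was measured against the same B6 mice. In (B6 X B6.A14)F1, 3 of the 9 genes fell, Acaca, Acly and Gpam, where 22.5% of all genes were called and 12.6% were called lower. Acaca ran from 50.4 to 81 CPM (median 62.7), below the B6 median in 6 of 8 mice (-0.35 ± 0.078, FDR = 4.41e-04). Acly ran from 51.7 to 89.6 CPM (median 67.7), below the B6 median in 8 of 8 mice (-0.36 ± 0.087, FDR = 8.96e-04). Both calls held under all 9 alternative settings. Gpam ran from 82.6 to 164.2 CPM (median 120.4), with 6 of 8 mice below the B6 median (-0.23 ± 0.089, FDR = 0.0444). That call was lost in 6 of 9 alternative settings, among them without the mouse with low Y-linked counts (-0.21, FDR = 0.0784), and turned to 0.10 (FDR = 0.49) with 10 surrogate variables. Fasn ran from 29.4 to 59 CPM (median 42.3) and did not pass (-0.25 ± 0.14, FDR = 0.204).

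Hepatocyte marker levels moved in the same strains, though not in them alone. Of 7 markers, 2 fell and 0 rose with chromosome 3, where no member was called (median sum 96171 CPM). The same counts were found in (B6.A8 X B6.A17)F1 against B6. The sum of the 7 markers ran from 92521 to 150847 CPM (median 110348) in B6, from 49215 to 102080 CPM (median 72908) with chromosome 8 and from 54831 to 119719 CPM (median 83452) with chromosome 14. Of the 7, 5 fell with chromosome 8 and 4 with chromosome 14, and 0 rose with either. In bulk tissue fewer cells of a type and less RNA per cell cannot be told apart, and the part of this shift in the lower lipogenic genes was not tested. The other 3 adipocyte markers summed to 12.3 to 55.8 CPM (median 24.3) in B6, 11.5 to 22.9 CPM (median 17.6) with chromosome 8, 14.8 to 34.4 CPM (median 17.5) with chromosome 14 and 9.76 to 19.2 CPM (median 13.2) with chromosome 6. Of these 3, 2 fell with chromosome 8, 1 with chromosome 14 and 2 with chromosome 6. Their part was not tested.

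**Figure D2:**
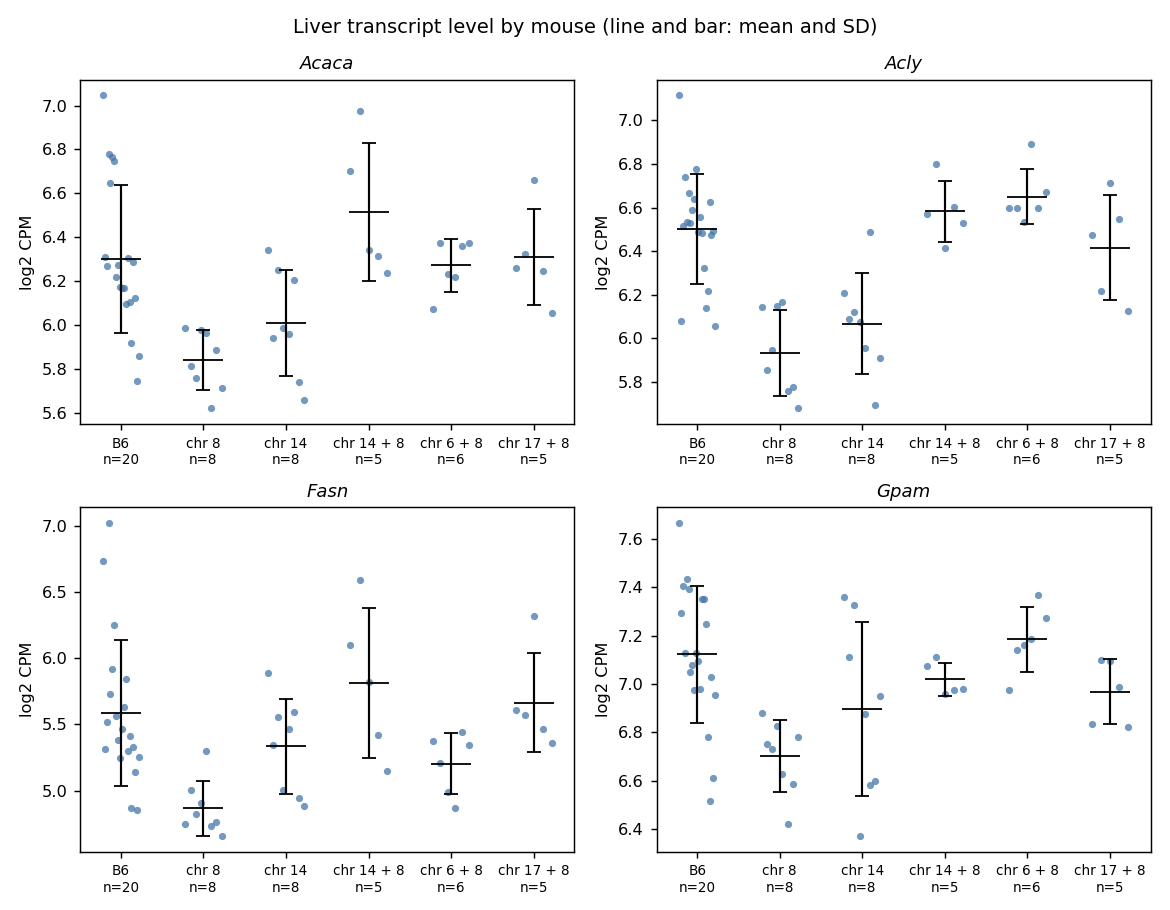
Level of Acaca, Acly, Fasn and Gpam (log2 CPM) in each mouse of B6, of the chromosome 8 and chromosome 14 strains, and of 3 double CSSs with chromosome 8. Points are mice and the line and bar are mean and SD. The chromosome 8 strain has the lowest mean in each panel.

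(B6 X B6.A6)F1 raised 2 of the 9 genes, Scd1 and Me1, where 8.09% of all genes were called and 4.3% were called higher. Scd1 ran from 574.5 to 1772 CPM (median 912.5) in B6 and from 1209 to 3049 (median 1774) with chromosome 6. In 8 of 8 mice it lay above the B6 median, and the fold was 1.86 (0.90 ± 0.20, FDR = 0.00211). Me1 ran from 35.4 to 78.3 CPM (median 61.2) in B6 and from 71.1 to 102.6 (median 84.5) with chromosome 6, above the B6 median in 8 of 8 mice (0.56 ± 0.12, FDR = 0.00105). Both calls held under all 9 alternative settings. Fasn in the same mice had a median of 32.3 CPM and did not pass (-0.34 ± 0.14, FDR = 0.11), but was called with 0 surrogate variables (-0.60, FDR = 0.0117).

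In (B6.A4 X B6)F1 edgeR called Me1 of the 9 genes (13.5% of all genes called), from 41 to 101.8 CPM (median 71.4), with 6 of 8 mice above the B6 median (0.36 ± 0.12, FDR = 0.0355). This call was lost with 0 surrogate variables (0.26, FDR = 0.157) and with 10 (0.26, FDR = 0.287). Gpam lay just outside the threshold there (-0.24 ± 0.089, FDR = 0.0514), was called by the DESeq2 Wald test (-0.25, FDR = 0.0416) and with adjustment over all genes at once (FDR = 0.0493), and was near 0 with 10 surrogate variables (0.015, FDR = 0.956).

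No member was called with chromosome 3 (3.7% of all genes), chromosome 5 (0.768%), chromosome 10 (6.64%) or chromosome 17 (3.67%). Of those 36 gene and strain pairs, edgeR gave 6 an unadjusted p under 0.05 and the DESeq2 Wald test called 0. The share of all genes with such an unadjusted p was not counted, here and below, so the members cannot be set against it. With 0 surrogate variables Me1 was called with chromosome 10 (-0.50, FDR = 0.00485) and Acly with chromosome 17 (-0.26, FDR = 0.0378). Thrsp with chromosome 3 ran from 17.2 to 78.7 CPM (median 49) and from 6.54 to 90.8 (median 19) in B6 (0.76 ± 0.29, FDR = 0.124). Elovl6, the gene on a substituted chromosome, ran from 16.3 to 45.6 CPM (median 32.8) with the A/J chromosome 3 and from 14.9 to 42.8 (median 28.4) in B6 (0.10 ± 0.14, FDR = 0.767).

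The second question was whether 2 chromosomes together act as the sum of their single effects. The interaction is the log2 departure of the double CSS from that sum, so it shares the single CSS and B6 mice with the tests above. All crosses with chromosome 8 share the same (B6.A8 X B6)F1 mice. A low level in those mice alone would give both a fall with chromosome 8 and positive interactions, so these calls are not independent. In (B6.A8 X B6.A14)F1, 4 of the 9 genes had a positive interaction (32.4% of all genes called, 18.1% positive), and they were the 4 that fell with chromosome 8. Had the log2 differences from B6 added up, Acaca would have been at 46.9 CPM, Acly at 45.3, Fasn at 24.5 and Gpam at 88.9. These additive levels, here and below, come from strain means of log2 CPM without surrogate variables. Their own error was not counted, and departures from them can differ in size from the fitted interactions.

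Acaca was measured at 75.4, 79.5, 80.9, 103.9 and 125.7 CPM in the 5 mice, all above the additive level and above every chromosome 8 mouse (0.88 ± 0.13, FDR = 4.98e-08). Acly was at 85.1, 92.2, 94.8, 96.9 and 111.1 CPM, likewise above the additive level and above every chromosome 8 mouse (0.88 ± 0.15, FDR = 6.94e-07). Both calls held under all 9 alternative settings and when any 1 of these 5 mice was dropped. Fasn was at 35.3, 42.7, 56.5, 68.3 and 96.2 CPM, above the additive level in 5 of 5 mice, with the lowest inside the chromosome 8 range (0.93 ± 0.24, FDR = 0.00149). Gpam was at 124.3, 125.7, 125.9, 134.8 and 138.1 CPM, above the additive level in 5 of 5 mice (0.45 ± 0.15, FDR = 0.0152). With 10 surrogate variables the Fasn interaction was 0.65 (FDR = 0.0988) and that of Gpam -0.21 (FDR = 0.328). The Gpam interaction was also lost with a stricter filter on low counts (0.16, FDR = 0.402) and with body weight as a covariate (0.33, FDR = 0.0801).

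Against B6 itself, the double CSS differed by 0.11 ± 0.088 (FDR = 0.544) for Acaca, 0.078 ± 0.10 (FDR = 0.739) for Acly, 0.16 ± 0.16 (FDR = 0.627) for Fasn and -0.18 ± 0.10 (FDR = 0.335) for Gpam, and none of the 4 passed. The hepatocyte marker sum of these 5 mice ran from 89014 to 116397 CPM (median 108538), and 3 of the 7 markers had a positive interaction. The part of these markers was not tested. Interactions of Scd1 (0.91 ± 0.38, FDR = 0.0543), Thrsp (0.81 ± 0.56, FDR = 0.282) and Srebf1 (0.23 ± 0.28, FDR = 0.582) did not pass. With 0 surrogate variables those of Srebf1 (0.98, FDR = 0.0103) and Scd1 (0.88, FDR = 0.0435) were called, and that of Scd1 also with body weight as a covariate (0.97, FDR = 0.0457). With 10 neither was (Srebf1 0.64, FDR = 0.174, and Scd1 0.46, FDR = 0.527).

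Me1 was the member called against B6 in this cross, where 4.82% of all genes were called, at 62.5, 73.2, 93.6, 100.974 and 109.4 CPM (0.66 ± 0.14, FDR = 0.00179). Its own interaction did not pass (0.12 ± 0.22, FDR = 0.723).

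In (B6.A8 X B6.A6)F1, 3 members had an interaction, beside 24.8% of all genes, and they did not point one way. Acly ran from 92.6 to 118.7 CPM (median 96.9) against an additive level of 57.9, above it in 6 of 6 mice (0.60 ± 0.14, FDR = 5.47e-04). Gpam ran from 125.6 to 165.2 CPM (median 144.3) against 88.8, above it in 6 of 6 mice (0.58 ± 0.14, FDR = 0.00137), but with 10 surrogate variables the departure was 0.012 (FDR = 0.989). Me1 went the other way, from 41.6 to 68.2 CPM (median 58.6) against an additive level of 94, below it in 6 of 6 mice (-0.84 ± 0.20, FDR = 0.00103). Against B6, Me1 in this cross differed by 0.024 ± 0.14 (FDR = 0.968). Scd1 ran from 746.5 to 1675 CPM (median 1146) and its departure did not pass (-0.68 ± 0.35, FDR = 0.146). With 0 surrogate variables Acaca (0.54, FDR = 0.00456) and Fasn (0.95, FDR = 0.00332) also had a positive interaction. The hepatocyte marker sum of these mice ran from 82055 to 98803 CPM (median 96711). Positive interactions were called for 4 of the 7 hepatocyte markers and 2 of the 3 adipocyte markers, and their part was not tested.

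**Figure D3:**
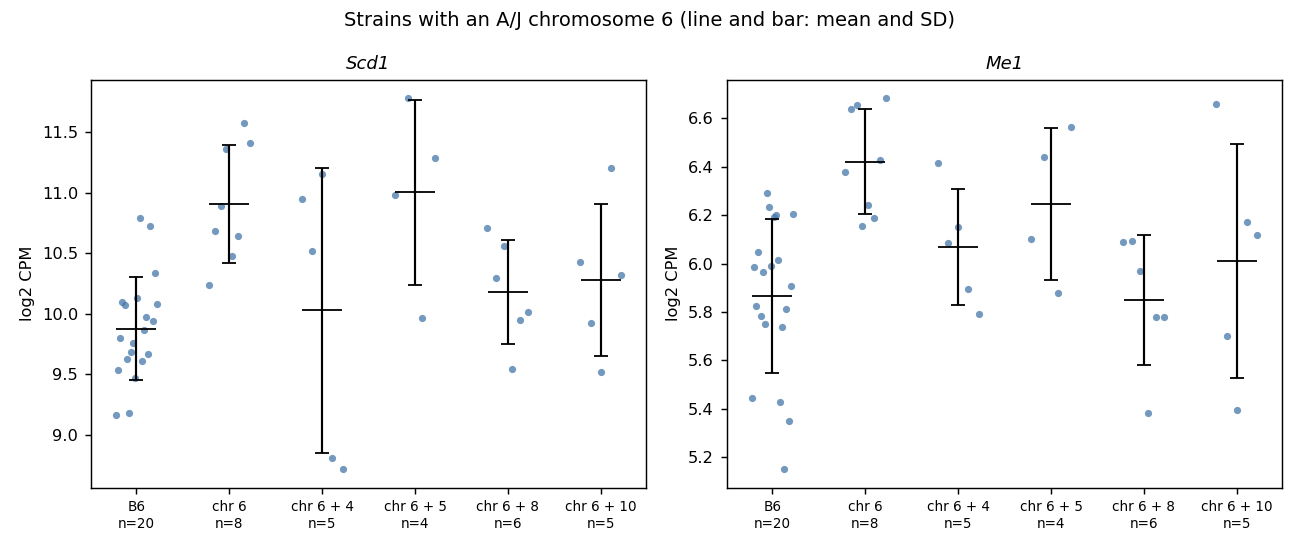
Level of Scd1 and Me1 (log2 CPM) in each mouse of B6, of (B6 X B6.A6)F1 and of the 4 double CSSs that also carry chromosome 6. Points are mice and the line and bar are mean and SD. The chromosome 6 mice run from 1209 to 3049 CPM for Scd1, and the mice with chromosomes 6 and 8 from 746.5 to 1675.

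In (B6.A8 X B6.A17)F1 Acly and Acaca had positive interactions, where 8.68% of all genes were called. Acly was at 69.8, 74.2, 88.7, 93.3 and 104.8 CPM against an additive level of 51.3 (0.52 ± 0.15, FDR = 0.0149). Acaca was at 66.5, 75.8, 76.4, 79.9 and 100.997 CPM against 48.2 (0.43 ± 0.13, FDR = 0.0266). For both, 5 of 5 mice lay above the additive level. Acaca was not called without replicate 2 (0.38, FDR = 0.0988) or replicate 4 (0.38, FDR = 0.105), nor Acly without replicate 4 (0.47, FDR = 0.0584). Neither was called with 10 surrogate variables (Acaca 0.29, FDR = 0.392, and Acly 0.33, FDR = 0.37) or the stricter filter (Acaca 0.31, FDR = 0.144, and Acly 0.40, FDR = 0.0639), and Acaca was not with body weight as a covariate (0.29, FDR = 0.169). With 0 surrogate variables Fasn was called too (1.19, FDR = 4.6e-04).

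No member interaction was called in the other 12 crosses, where 1.96% of all gene and cross pairs were called. Of those 108 member pairs, 16 had an unadjusted p under 0.05 with edgeR (share over all genes not counted), and the DESeq2 Wald test called 0. With 0 surrogate variables Acly was called in the cross of chromosomes 14 and 10 (0.45, FDR = 0.0307) and Gpam in that of chromosomes 3 and 8 (0.54, FDR = 0.0251).

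Taking all 15 interactions at once, 6 of the 9 genes passed the joint test, beside 27.4% of all genes. They were Me1 (FDR = 6.73e-06), Acaca (FDR = 2.46e-04), Acly (FDR = 2.93e-04), Gpam (FDR = 0.0313), Srebf1 (FDR = 0.036) and Scd1 (FDR = 0.0449). Without the mouse with low Y-linked counts 3 passed: Me1 (FDR = 1.02e-05), Acaca (FDR = 6.21e-04) and Acly (FDR = 0.00159). Gpam (FDR = 0.0724), Srebf1 (FDR = 0.0521) and Scd1 (FDR = 0.0582) then did not. With 10 surrogate variables Me1 (FDR = 0.00109) and Acly (FDR = 0.0257) passed and Acaca did not (FDR = 0.0523). Fasn (FDR = 0.0809), Thrsp (FDR = 0.562) and Elovl6 (FDR = 0.597) did not pass with all mice.

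Against B6 directly, 7 member differences were called in 5 double CSSs, and Me1 gave 3 of them, all higher. Beside the cross of chromosomes 14 and 8 above, Me1 stood at 88.1, 90.8, 97.4, 100.1 and 109.0 CPM in (B6.A5 X B6.A17)F1 (0.67 ± 0.14, FDR = 0.00462, 1.44% of all genes called). It stood at 86.7, 89.6, 91.5, 95.2 and 104.4 CPM in (B6.A4 X B6.A14)F1 (0.63 ± 0.14, FDR = 5.89e-04, 13.9% of all genes called). In both crosses every mouse was above the highest B6 mouse. Without the mouse with low Y-linked counts the second difference was 0.59 (FDR = 0.00561).

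In (B6.A4 X B6.A14)F1 Gpam and Acly fell. Gpam was at 94.3, 106.0, 108.0, 108.6 and 130.8 CPM, below the B6 median in 5 of 5 mice (-0.41 ± 0.10, FDR = 0.00392). Its call was lost without replicate 2 (-0.31, FDR = 0.0543) and with 10 surrogate variables (-0.13, FDR = 0.429), and without the mouse with low Y-linked counts the difference was -0.38 (FDR = 0.0213). Acly was at 68.2, 74.7, 78.7, 79.7 and 82.1 CPM, below the B6 median in 5 of 5 mice (-0.32 ± 0.10, FDR = 0.0187). Its call was lost without the mouse with low Y-linked counts (-0.26, FDR = 0.124), without replicate 2 (-0.25, FDR = 0.141) and with 0 surrogate variables (-0.26, FDR = 0.113). In these mice 2 of the 7 hepatocyte markers were lower than in B6 and 3 of the 7 Kupffer cell markers higher, and their part was not tested.

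Srebf1 was called against B6 in 1 strain, (B6.A5 X B6.A3)F1 (1 of its 5 labels lacks the F1), where 13.5% of all genes were called. It stood at 34.2, 34.4, 55, 57.1 and 61.6 CPM, above the B6 median of 23.4 in 5 of 5 mice and within the B6 range of 15.2 to 63.4 (0.76 ± 0.18, FDR = 0.00186). With 10 surrogate variables the difference was 0.48 (FDR = 0.0913). Its interaction did not pass (0.43 ± 0.26, FDR = 1), nor did the differences with chromosome 3 (0.21 ± 0.15, FDR = 0.485) or chromosome 5 (0.12 ± 0.16, FDR = 0.842) alone. In (B6.A5 X B6.A3)F1, 3 of 6 endothelial and 2 of 6 stellate cell markers were higher than in B6 and 0 of either lower. Of the 3 adipocyte markers 2 were lower and 0 higher, and of the 7 hepatocyte markers 1 was higher and 2 lower. Of the 7 Kupffer cell markers 1 was lower and 0 higher. The part of these markers was not tested. Scd1 was called in (B6.A5 X B6.A6)F1 (2.42% of all genes called), at 1001, 2017, 2506 and 3518 CPM, above the B6 median in 4 of 4 mice (1.06 ± 0.25, FDR = 0.00871). Without replicate 2 this difference was 0.75 (FDR = 0.233). In the 10 double CSSs with no member called, 2.36% of all gene and cross pairs were called. Of their 90 member pairs, 11 had an unadjusted p under 0.05 with edgeR (share over all genes not counted) and the DESeq2 Wald test called 0. Fasn passed in (B6.A5 X B6.A3)F1 with the stricter filter (0.45, FDR = 0.0316).

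The wider lipid network was followed through 119 further genes. With chromosome 8, 55 fell and 6 rose, and with chromosome 14, 36 fell and 6 rose, where 16.7% and 12.6% of all genes were called lower. Of 16 genes of fasting oxidation, ketogenesis and their hormonal signals, 11 fell with chromosome 8 (median log2 difference -0.46) and 10 with chromosome 14 (median -0.45), and none rose. The median over all genes was -0.01 with chromosome 8 and -0.0054 with chromosome 14. Cpt1a, which loads acyl chains for mitochondrial oxidation, was lower with chromosome 8 (-0.72 ± 0.11, FDR = 1.1e-07) and with chromosome 14 (-0.60 ± 0.10, FDR = 3.91e-06). Of 14 further glycerolipid genes, 10 fell and 1 rose with chromosome 8. Of 16 cholesterol synthesis targets of SREBP2, 4 fell. Of 6 genes of SREBP processing 1 fell, the escort protein Scap (-0.36 ± 0.082, FDR = 3.22e-04), and of 11 nuclear factors of lipogenesis 3 fell and 1 rose, Mlxipl, which encodes ChREBP (0.37 ± 0.09, FDR = 6.97e-04).

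The largest called differences of network genes with chromosome 8 were those of Elovl3, an elongase of very long chains (1.88 ± 0.38, FDR = 4.36e-05), the leptin receptor Lepr (-1.57 ± 0.37, FDR = 4.39e-04) and the phosphatidate phosphatase Lpin1 (-1.49 ± 0.35, FDR = 5.17e-04). In the chromosome 14 and 8 cross, 55 of the 119 genes had a positive interaction and 6 a negative one, beside 18.1% of all genes with a positive one. The largest were those of Elovl3 (-3.62 ± 0.66, FDR = 4.22e-06), Lepr (1.74 ± 0.57, FDR = 0.0115) and the nuclear receptor repressor Nr0b2 (1.21 ± 0.46, FDR = 0.034). Of 10 genes that supply acetyl-CoA or NADPH beside the members, 6 had a positive interaction there and 0 a negative one. In (B6.A4 X B6.A14)F1 large called differences from B6 were those of the fatty acid binding protein Fabp5 (-1.78 ± 0.40, FDR = 0.00101) and the peroxisomal enzyme Ehhadh (-1.005 ± 0.29, FDR = 0.0107). With chromosome 6, 10 network genes fell and 3 rose, beside 8.09% of all genes called in either direction and 4.3% called higher. Lepr (-1.53 ± 0.35, FDR = 0.0025), Fabp5 (-1.30 ± 0.31, FDR = 0.0038) and Lpin1 (-0.98 ± 0.32, FDR = 0.0363) were among those that fell, and isocitrate dehydrogenase Idh1, another NADPH source, among those that rose (0.23 ± 0.05, FDR = 0.00174).

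The third question was whether these genes follow body weight and fasting plasma glucose from mouse to mouse. Slopes were fitted within strains over all mice. Acaca, Fasn and Thrsp fell with body weight and no member rose, beside 11.1% of all genes called. The slope was -0.09 ± 0.027 log2 units per g for Fasn (FDR = 0.0203), -0.058 ± 0.016 for Acaca (FDR = 0.00838) and -0.22 ± 0.062 for Thrsp (FDR = 0.011). All 3 calls held in 6 of 6 alternative settings. Slopes on weight that did not pass were -0.036 ± 0.016 for Gpam (FDR = 0.125), -0.033 ± 0.021 for Me1 (FDR = 0.338), 0.058 ± 0.033 for Srebf1 (FDR = 0.266) and 0.02 ± 0.038 for Scd1 (FDR = 0.798). Acly was at 0.00091 ± 0.015 per g (FDR = 0.984) and Elovl6 at -0.0065 ± 0.027 (FDR = 0.92). Of the 119 network genes, 19 fell and 8 rose with body weight. With no strain terms the slope of Scd1 was 0.10 ± 0.035 per g and passed (FDR = 0.0232).

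**Figure D4:**
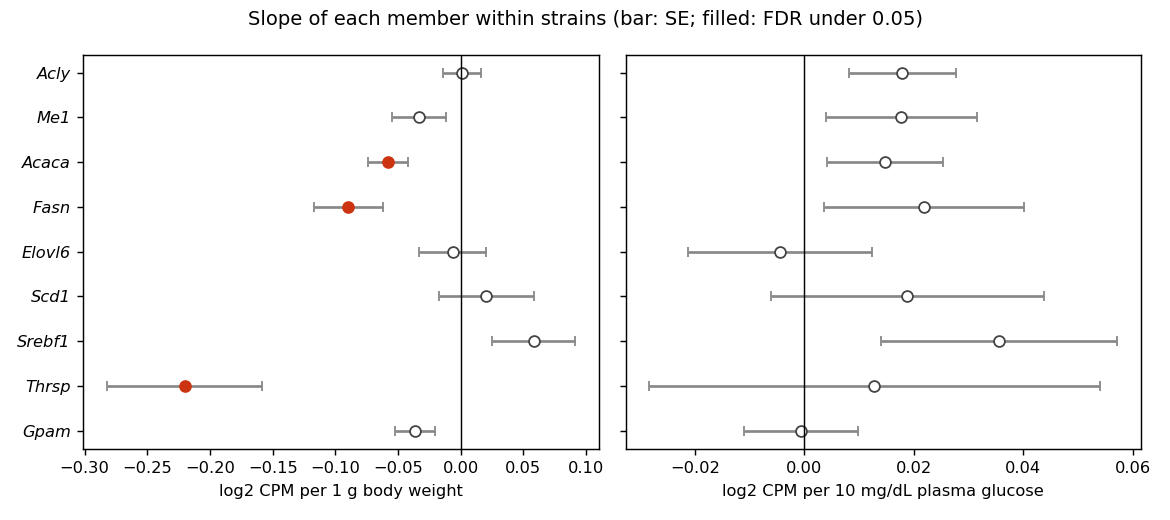
Slope of each gene's log2 level on body weight and on fasting plasma glucose within strains, all mice. Points are slopes, bars are SEs and filled points have an FDR under 0.05. Thrsp, Fasn and Acaca are filled and lie below 0 for body weight, and no glucose slope is filled.

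No member was called with plasma glucose within strains, beside 5.35% of all genes called. The edgeR test called 0 of the 9 genes, and 0 had an unadjusted p under 0.05. The slopes per 10 mg/dL were 0.036 ± 0.022 for Srebf1 (FDR = 0.352), 0.022 ± 0.018 for Fasn (FDR = 0.534) and 0.018 ± 0.0098 for Acly (FDR = 0.297). Pooled over mice with no strain terms, Srebf1 (0.0082 ± 0.0019 per mg/dL, FDR = 0.00371) and Fasn (0.0055 ± 0.0017, FDR = 0.0323) were called with glucose. The pooled fit mixes differences between strains with those within them.

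The last question was how the other members vary with Srebf1 between mice of the same strain. Each mouse's deviation from its strain mean was used, over all mice and 8 relations, with a two-sided permutation test within strains (100000 draws). Fasn (Pearson r = 0.49, Spearman rho = 0.41) and Acly (r = 0.49, rho = 0.45) followed Srebf1 most closely. Each had a permutation p of 1e-05 for r and for rho, the smallest these draws can give (adjusted p = 4e-05). Acaca also passed (r = 0.34, permutation p = 1.4e-04, adjusted p = 3.73e-04, and rho = 0.32, permutation p = 2.4e-04, adjusted p = 6.4e-04). So did Scd1 (r = 0.23, permutation p = 0.00377, adjusted p = 0.00754, and rho = 0.29, permutation p = 6e-04, adjusted p = 0.0012).

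Thrsp (r = 0.18, rho = 0.12, adjusted permutation p = 0.0606 for r), Me1 (r = 0.085, rho = 0.11, adjusted p = 0.348), Elovl6 (r = -0.10, rho = -0.089, adjusted p = 0.345) and Gpam (r = -0.10, rho = -0.14, adjusted p = 0.345) did not pass. With the 2 mice farthest from the median Srebf1 deviation left out, r was 0.45 for Fasn, 0.46 for Acly, 0.31 for Acaca and 0.22 for Scd1, and all 4 still passed. Without the mouse with low Y-linked counts r was 0.49 for Fasn, 0.50 for Acly, 0.34 for Acaca and 0.25 for Scd1, and these 4 passed again. In the 20 B6 mice alone, r was 0.74 for Fasn, 0.56 for Acly and 0.55 for Acaca, which passed (adjusted permutation p = 0.00344, 0.034 and 0.034). For rho in B6 alone none of these 3 passed (adjusted permutation p = 0.0575, 0.0575 and 0.318). Both axes come from 1 library per mouse, so depth and RNA quality are shared. The 5 surrogate variables held 36.4% of the within-strain variance of Srebf1, 41.8% of that of Acaca and 30.5% of that of Fasn, and their part in these relations was not tested.

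**Figure D5:**
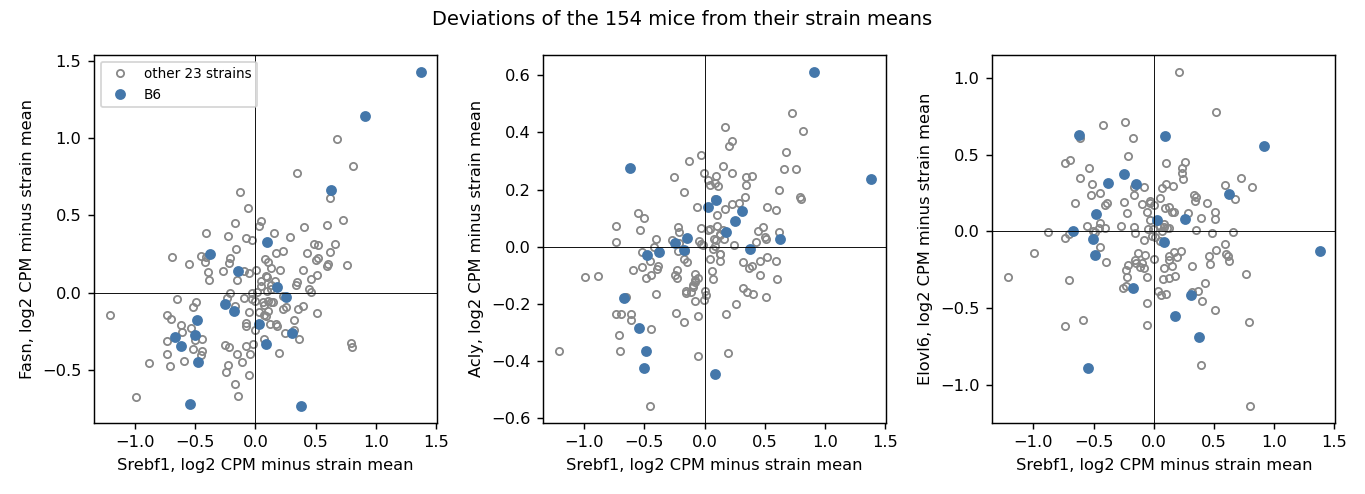
Deviation of Fasn, Acly and Elovl6 from the strain mean (log2 CPM) against that of Srebf1 (log2 CPM) in all mice, with the 20 B6 mice filled. Fasn and Acly rise with Srebf1 (r = 0.49 and 0.49), and r is -0.10 for Elovl6.

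As a description over the same deviations of all mice, Acaca and Fasn were closest to each other (r = 0.74), followed by Fasn and Thrsp (r = 0.60) and Acly and Acaca (r = 0.58). Scd1 went with Me1 (r = 0.42), and its r with Fasn was -0.004. Elovl6 was closest to Gpam (r = 0.47). Among the genes outside the list most like Fasn in these deviations were Tkfc, a triose and fructose pathway kinase (r = 0.70), Rrm2 (r = 0.58), the liver pyruvate kinase Pklr (r = 0.56) and citrate synthase Cs (r = 0.55). Among those most like Srebf1 were Mid1ip1, which acts with Thrsp on acetyl-CoA carboxylase (r = 0.65), the glucocorticoid receptor Nr3c1 (r = 0.60), Slc30a1 (r = 0.58) and Llgl2 (r = 0.56). Over the 24 strain means, Xpc, Cyp27a1, Bzw2, Golim4 and Serpina3n were most like Fasn (r from 0.74 to 0.75), and Coq8a, Mid1ip1, Prnp, Slc46a3 and Gata4 most like Srebf1 (r from 0.79 to 0.82).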

How the data were processed

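Liver RNA was sequenced from 20 B6, 63 single CSS and 71 double CSS mice of 24 strains, grouped by the strain label. The authors made stranded total RNA libraries, aligned single-end reads with TopHat2 to mm10 and the reads left over to an individualized A/J genome, and deposited raw counts per gene made with HTSeq, after removing duplicates and genes with low counts. Which libraries shared a flow cell is not given in the sources used here, so no batch term could be fitted. P-values for strains and interactions rest on the spread within strains, pooled over all strains, that is left after the surrogate variables. Litter and breeding cage were not modelled, so any littermates counted as independent mice.

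Counts were scaled by TMM in edgeR 4.0.16 (R 4.3.3), and log2 CPM used a prior count of 2. One quasi-likelihood fit over all 13289 genes held 8 chromosome terms, 15 interaction terms and 5 surrogate variables (sva 3.50.0). Benjamini-Hochberg adjustment ran within each effect, separately on and off the substituted chromosomes (47 genes had no position in the annotation used), with an FDR of 0.05. Joint tests and trait slopes were adjusted over all genes. Slopes used strain terms plus the body weight or plasma glucose that the study lists for each mouse, without surrogate variables. Gene positions came from GENCODE on GRCm38 and promoter sequences from RefSeq. The fit was also run on simulated counts with known changes. These held no unrecorded variation between libraries, so they cannot test the choice of surrogate variables.

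The members and gene lists were chosen with earlier results of these data known. Beside the members, the 3 network genes with the largest called effect (average log2 CPM of at least 2) were named for the single CSS and the cross with the most member calls, and the 5 genes most correlated with Fasn and with Srebf1. Some genes that this rule picks are not reported here. Cpt1a, Idh1, Mlxipl and Scap, and the genes named with chromosome 6, were chosen after their values were seen. Alternatives were 0 and 10 surrogate variables, DESeq2 1.42.0 size factors, the DESeq2 Wald test, a filter of 15 counts in 75% of the mice, adjustment over all genes, the newer edgeR fit, body weight as a covariate, the mouse with low Y-linked counts left out, and each mouse of a cross of 5 or fewer left out in turn. The paper gives that same filter of 15 counts in 75% of the mice for its 13289 genes, but here it left 11852. Leaving the mouse with low Y-linked counts out of the relations to Srebf1 was added after seeing the data.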

Additional observations from a re-analysis of the deposited data

Results flagged for a closer look

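Single mice far from the rest of their strain by Dixon's gap test were found in 11 of 198 gene and strain groups tested, where chance alone gives about 9.9 (1 in 20). Acly in (B6.A10 X B6.A6)F1 replicate 3 stood at 115.8 CPM, the highest, against 73.5 to 80.8 in the other mice of its strain. Acaca in (B6.A5 X B6.A17)F1 replicate 4 stood at 121.3 CPM, the highest, against 65.7 to 78.4 in the other mice of its strain. Acaca in (B6 X B6.A3)F1 replicate 3 stood at 100.5 CPM, the highest, against 74.1 to 83.6 in the other mice of its strain. Fasn in (B6.A8 X B6.A17)F1 replicate 3 stood at 79.5 CPM, the highest, against 41 to 48.6 in the other mice of its strain. Scd1 in (B6.A8 X B6.A14)F1 replicate 4 stood at 1059 CPM, the lowest, against 1339 to 1458 in the other mice of its strain. Srebf1 in (B6.A5 X B6.A14)F1 replicate 3 stood at 15 CPM, the lowest, against 26 to 31.3 in the other mice of its strain. Srebf1 in (B6 X B6.A3)F1 replicate 7 stood at 12.7 CPM, the lowest, against 26.3 to 42.3 in the other mice of its strain. Thrsp in (B6.A4 X B6.A17)F1 replicate 4 stood at 32.2 CPM, the highest, against 14.7 to 15.7 in the other mice of its strain. Thrsp in (B6.A5 X B6.A17)F1 replicate 4 stood at 44.6 CPM, the highest, against 16.7 to 17.8 in the other mice of its strain. Thrsp in (B6.A8 X B6)F1 replicate 5 stood at 78.4 CPM, the highest, against 6.31 to 19.6 in the other mice of its strain. Gpam in (B6.A4 X B6)F1 replicate 1 stood at 93.6 CPM, the lowest, against 120.8 to 141.4 in the other mice of its strain. Replicate 4 of (B6.A5 X B6.A17)F1 appears for both Acaca and Thrsp.

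An interaction was called in 9 tests (log2 departure from the sum of the single effects). In (B6.A8 X B6.A14)F1 these were Acly 0.88, Acaca 0.88, Fasn 0.93 and Gpam 0.45, beside 32.4% of all genes called. In (B6.A8 X B6.A6)F1 they were Acly 0.60, Gpam 0.58 and Me1 -0.84, beside 24.8%. In (B6.A8 X B6.A17)F1 they were Acly 0.52 and Acaca 0.43, beside 8.68%. With 10 surrogate variables Gpam was called in neither cross, nor was Fasn, nor were Acly and Acaca in (B6.A8 X B6.A17)F1.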

How the results depend on the processing

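The number of surrogate variables moved the counts most. With 10 of them, member calls went from 10 to 6 in single CSSs, from 9 to 4 for interactions and from 6 to 2 in the joint interaction test, and with 0 the interaction calls went from 9 to 16. The joint strain test gave 7 with 10 of them, with Elovl6 in place of Gpam. How calls over all genes moved with these settings was not examined, so the members cannot be set against that share. The joint interaction test gave 3 without the (B6.A4 X B6.A14)F1 mouse with low Y-linked counts. Plasma glucose gave 0 calls within strains and 2 with no strain terms. The other alternatives left these counts, and those of double CSSs, the joint strain test and body weight, within 1.5 times. Each of 65 mice was left out in turn, and only the effects of its own cross were tested again. No mouse of B6, of a single CSS or of (B6.A8 X B6.A6)F1 was left out, so those calls were not examined for single mice. With the other crosses' calls kept, there were 7 to 10 interaction calls and 5 to 7 calls of double CSSs against B6. Gpam reversed with 10 surrogate variables, to 0.097 with chromosome 14 and to -0.21 for the chromosome 14 and 8 interaction. In B6 alone, r with Srebf1 reversed to 0.0025 for Elovl6 and was 0.062 for Scd1, short of the threshold. The cause was not tested. No paired analysis was possible because the mouse numbers in the labels are not shared between strains, so no label pairs mice across groups.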
